A study of Mus musculus with 4 samples.

Results

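The genes described are 8 smooth muscle contractile genes, Acta2, Tagln, Myh11, Mylk, Cnn1, Myl9, Des and Tpm2, taken by symbol from the 31053 genes that each count matrix lists. All 8 were present in all 4 matrices. They were followed in mural, myoepithelial and fibroblast cells of a salivary gland, the mouse submandibular gland. The study used 10x Genomics single-cell RNA sequencing on female C57BL6/J mice. For 2 libraries, called deligated 1 and deligated 2, a metal clip on the main ducts had blocked the submandibular and the sublingual gland for 14 days and had been off for 5 days, in mice aged 14 weeks. For the other 2, homeostatic 1 and homeostatic 2, mice aged 12 weeks had no surgery. In both groups epithelial cells carrying EpCAM and red cells carrying Ter119 were pulled out on magnetic beads in 2 rounds, followed by a dead-cell removal step, so that stromal cells were enriched. The protocol names 2 glands per harvest and does not say how many animals gave each library, so p-values measure the spread between these libraries, which may be technical. Age and the version of the counting software also differed between the groups and cannot be told apart from the surgery.

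Smooth muscle contracts when actin filaments, built from alpha smooth muscle actin (Acta2), slide along smooth muscle myosin (heavy chain Myh11, regulatory light chain Myl9). Myosin light chain kinase (Mylk) switches the myosin on by phosphorylating its light chain, and transgelin (Tagln), calponin 1 (Cnn1) and beta-tropomyosin (Tpm2) bind along the actin filament, while desmin (Des) forms the intermediate filaments that link the contractile units. Many of these genes are under serum response factor and its co-activator myocardin, which act at a promoter element known as the CArG box. In a salivary gland the apparatus is found in the mural cells of vessels (smooth muscle cells and pericytes) and in myoepithelial cells, which squeeze the acini, and fibroblasts can acquire parts of it when they become myofibroblasts.

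On GRCm38 with GENCODE M21, Acta2 lies at chr19:34241090-34255590, Tagln at chr9:45929619-45936058, Myh11 at chr16:14194535-14291372 and Mylk at chr16:34745210-35002420. Cnn1 lies at chr9:22099216-22109630, Myl9 at chr2:156775420-156781658, Des at chr1:75360329-75368579 and Tpm2 at chr4:43514711-43523765. Introns make up 245.9 kb of Mylk and 89.2 kb of Myh11, against at most 12.3 kb in each of the other members. Tagln, Mylk and Des overlap other genes on the opposite strand, and whether counting used strand is not given in the sources used here.

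The promoter table from RefSeq (GRCm38.p6) held 6 of the 8 members; Tagln and Myh11 had no entry. In the 250 bases before the start, 2 of these 6, Acta2 and Myl9, held a CArG box on either strand, exact or 1 letter off. Of 32851 promoters in the table, 1.47% held an exact box and 8.59% a box exact or 1 letter off, while 0.67% held 2 or more of the latter. They are shown because these elements are the shared promoter feature for which contractile genes are known. Capitals mark the boxes, and each run reads 5′ to 3′ on the gene's strand. The Acta2 boxes begin 84 and 34 bases before the RefSeq start, both 1 letter off, at chr19:34255438-34255467 and chr19:34255388-34255417 on the minus strand.
Acta2 first box: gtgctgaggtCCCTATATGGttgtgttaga
Acta2 second box: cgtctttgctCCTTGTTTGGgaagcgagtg
The Myl9 boxes begin 161 (exact) and 99 (1 letter off) bases before the RefSeq start. The run shown is chr2:156775214-156775419 on the plus strand. It is cut before the GENCODE start at 156775420, while the 250 bases before the RefSeq start reach 156775463.
Myl9 promoter: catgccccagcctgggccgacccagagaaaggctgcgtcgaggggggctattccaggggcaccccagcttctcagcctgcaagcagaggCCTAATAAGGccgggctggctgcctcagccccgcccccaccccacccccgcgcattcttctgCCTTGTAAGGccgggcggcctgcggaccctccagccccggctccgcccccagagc
A match describes these letters and is not evidence of binding.

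The libraries held 4725 and 8713 (deligated) and 12854 and 13266 (homeostatic) cell barcodes with 35662241 to 53898793 UMIs (unique molecular identifiers, which tag single captured transcripts) each, and 14 to 54 barcodes were shared between any pair. After filtering, 4357, 7823, 10615 and 10900 cells remained, with median UMI counts of 6009, 5154, 2854 and 2695.5. Classes were named from marker lists that contain none of the 8 genes, and the 8 genes and other contraction genes were left out of clustering. The mural-like class held 323, 455, 127 and 75 cells, the fibroblast-like class 361, 749, 274 and 279, and the T cell-like class, used as a reference for free RNA, 589, 778, 161 and 167, each in the order deligated 1, deligated 2, homeostatic 1, homeostatic 2. Values listed by library below keep this order. Cells resembling basal and myoepithelial cells numbered 22, 18, 59 and 49, after a bead depletion aimed at epithelium, and other epithelial-like cells 15, 81, 2130 and 2208. Levels are CPM, the UMIs of a gene scaled to the same total for every class and library. Different clusters held most of the fibroblast-like and T cell-like cells in the groups: 93.8% of deligated fibroblast-like cells were in cluster 8, with 3.1% of the homeostatic ones, while cluster 18 held 95.1% of the homeostatic and none of the deligated ones. Of homeostatic T cell-like cells 85.4% were in cluster 26, with 0.1% of the deligated ones, which were mainly in clusters 12 (48.7%) and 19 (36.1%). Mural-like cells shared cluster 20 (48.3% of deligated and 37.6% of homeostatic cells), while cluster 22 held 49.6% and 8.4% and cluster 38 held 47.0% of the homeostatic cells alone.

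Mural-like cells were the main source of all 8 transcripts. They held between 91.5% and 95.3% of all Acta2 UMIs of a library, 89.9% to 95.8% of Tagln, 93.2% to 95.7% of Myh11, 89.6% to 92.7% of Myl9, 89.1% to 91.6% of Des and 84.0% to 89.0% of Tpm2, although mural-like cells made up 7.41%, 5.82%, 1.20% and 0.688% of cells. Cnn1 and Mylk were spread more widely. Mural-like cells held 61.8% to 77.1% of Cnn1 UMIs and basal/myoepithelial-like cells 10.8% to 20.2%. For Mylk, mural-like cells held 54.6% to 69.0%, fibroblast-like cells 19.9% to 28.1% and endothelial-like cells 2.90% to 16.7%. The plot of levels by class shows the same order for Acta2 in each library, with mural-like cells highest, basal/myoepithelial-like cells next and fibroblast-like and T cell-like cells far below.

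**Figure D1:**
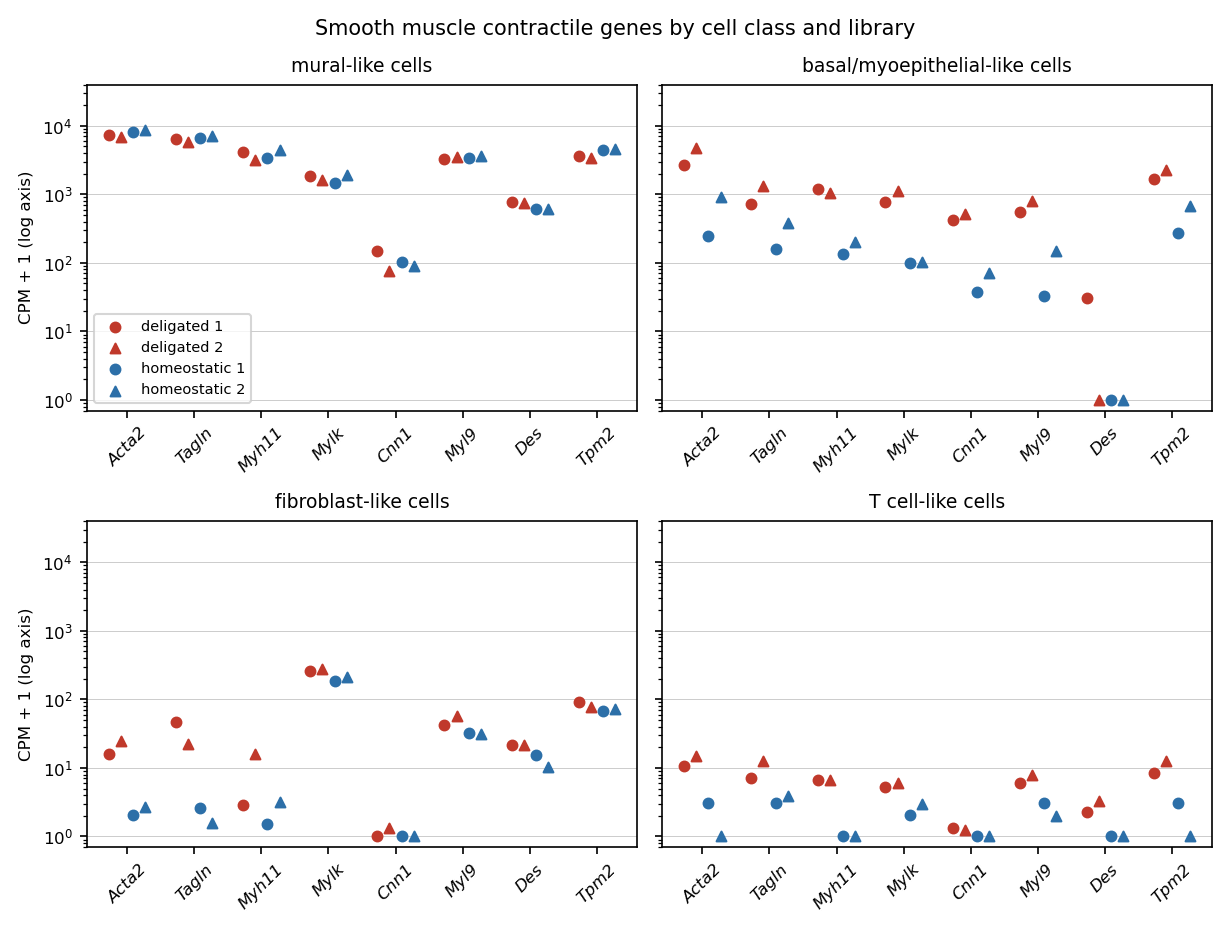
CPM + 1 of the 8 genes (log axis) in mural-like, basal/myoepithelial-like, fibroblast-like and T cell-like cells, 1 point per library, circles and triangles for libraries 1 and 2 of a group, red deligated, blue homeostatic. Acta2 sits between 6882 and 8766 CPM in mural-like cells of all 4 libraries and at most at 23.5 CPM in fibroblast-like cells.

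In mural-like cells the group difference passed the threshold for none of the 8 genes. Both deligated libraries lay below both homeostatic ones for 3 members and above them for 1, and the groups overlapped for 4. Of 12007 genes with at least 10 UMIs in the class, 22.5% lay below and 26.0% above in this way. Acta2 stood at 7224, 6882, 8104 and 8766 CPM, with both deligated libraries below both homeostatic ones by a log2 fold change of -0.29 (SE 0.13), which did not pass the threshold (edgeR quasi-likelihood test, adjusted p 0.236). Myh11 was at 4203, 3150, 3344 and 4425 CPM and Myl9 at 3286, 3544, 3333 and 3635 CPM. For both myosin chains the groups overlapped, and the log2 fold changes were -0.11 (SE 0.20) and -0.07 (SE 0.14). The kinase Mylk gave 1854, 1595, 1439 and 1927 CPM, also overlapping.

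Among the actin-binding proteins, Tagln had 6356, 5755, 6630 and 7149 CPM, lower in both deligated libraries, and Tpm2 had 3615, 3436, 4374 and 4549 CPM, also lower in both. Tpm2 gave the largest difference of the list, a log2 fold change of -0.38 (SE 0.13, adjusted p 0.141 by edgeR), and Tagln -0.22 (SE 0.14, adjusted p 0.426 by edgeR). Cnn1, a marker of fully differentiated smooth muscle, was at 145.7, 75.42, 102.5 and 89.44 CPM, overlapping between groups. Des was the 1 member with both deligated libraries higher, 771.9 and 744.8 CPM against 607.3 and 606.9 CPM, a log2 fold change of 0.29 (SE 0.16, adjusted p 0.358 by edgeR).

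All 8 members passed the filter on low counts in this class and 0 of 8 were called by edgeR, 2 had an unadjusted p under 0.05 (Acta2 and Tpm2) and DESeq2 also called 0. Of all 9736 genes tested, 6.56% were called, 0.945% higher and 5.62% lower. The median log2 fold change was -0.09 over the members and 0.01 over all genes. With a stricter cell filter, Acta2 (0.70) and Des (0.93) were called higher, and the direction of Acta2, Tagln, Myh11, Mylk, Myl9 and Tpm2 turned. That filter takes at most 5% mitochondrial UMIs, and the median in vascular smooth muscle-like cells was 7.41% to 8.50%. The part of this limit in the change was not tested. Mylk was called higher (1.08) after a trend of fold change with intron length was removed.

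Of 34 other contraction genes listed, all were tested and 1 changed. Myocd, which encodes myocardin, fell from 112 and 158 CPM in the homeostatic libraries to 55.2 and 50.7 CPM in the deligated ones, by 1.37 on the log2 scale (SE 0.22, adjusted p 0.00241 by edgeR). Both deligated libraries lay below both homeostatic ones. The call was lost without homeostatic replicate 2 (log2 fold change -1.06), after thinning to 1000 UMIs per cell (-1.65) and under the stricter cell filter (-0.05), with adjusted p over the alternatives from 1.11e-07 to 0.978. Srf, its partner at the CArG box, gave a log2 fold change of -0.33 (SE 0.25, adjusted p 0.555 by edgeR).

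The mural-like class holds pericytes and vascular smooth muscle, so it was sub-clustered within each group from markers outside the contractile lists. Vascular smooth muscle-like cells, named from Mustn1, Map3k7cl, Susd5, Pcp4l1 and others, numbered 78, 118, 23 and 14. Pericyte-like cells, named from Kcnj8, Abcc9, Vtn and Colec11 among others, numbered 92, 152, 62 and 17, and 153, 185, 42 and 44 mural-like cells were neither. Immediate early genes (Atf3, Fos, Klf2) led 1 cluster of 59 deligated vascular smooth muscle-like cells, and lymphocyte genes led a cluster of 11 deligated cells in the remainder.

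Vascular smooth muscle-like cells carried the highest levels. Their Acta2 was at 14030, 13070, 16110 and 12130 CPM against 301.5, 1110, 988.2 and 1154 CPM in pericyte-like cells, with 5198 to 9276 CPM in the remainder. The same order held in every library for Myh11 (5624 to 7638 against 208.9 to 619.1 CPM) and for Tagln (10460 to 13070 against 290.7 to 1393 CPM). Cnn1 ranged from 180.3 to 356.6 CPM in the vascular smooth muscle-like cells and was listed at 0 in pericyte-like cells of 3 libraries. Every vascular smooth muscle-like cell held a UMI of at least 2 of Acta2, Tagln, Myh11, Cnn1 and Des, compared with 50.0%, 48.7%, 51.6% and 76.5% of pericyte-like cells, whose median depth was 3147 to 4715 UMIs against 6863 to 9203.

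Each class had its own mix of the 8 transcripts. Myl9 made up 27.9%, 25.3%, 22.7% and 17.6% of the UMIs of the 8 genes in pericyte-like cells and 10.9%, 12.7%, 10.8% and 10.6% in vascular smooth muscle-like cells. Conversely Acta2 made up 8.40% to 18.3% in the pericyte-like and 26.9% to 29.4% in the vascular smooth muscle-like cells. These shares were computed from the same libraries, with 14 to 152 cells each, and were not tested.

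**Figure D2:**
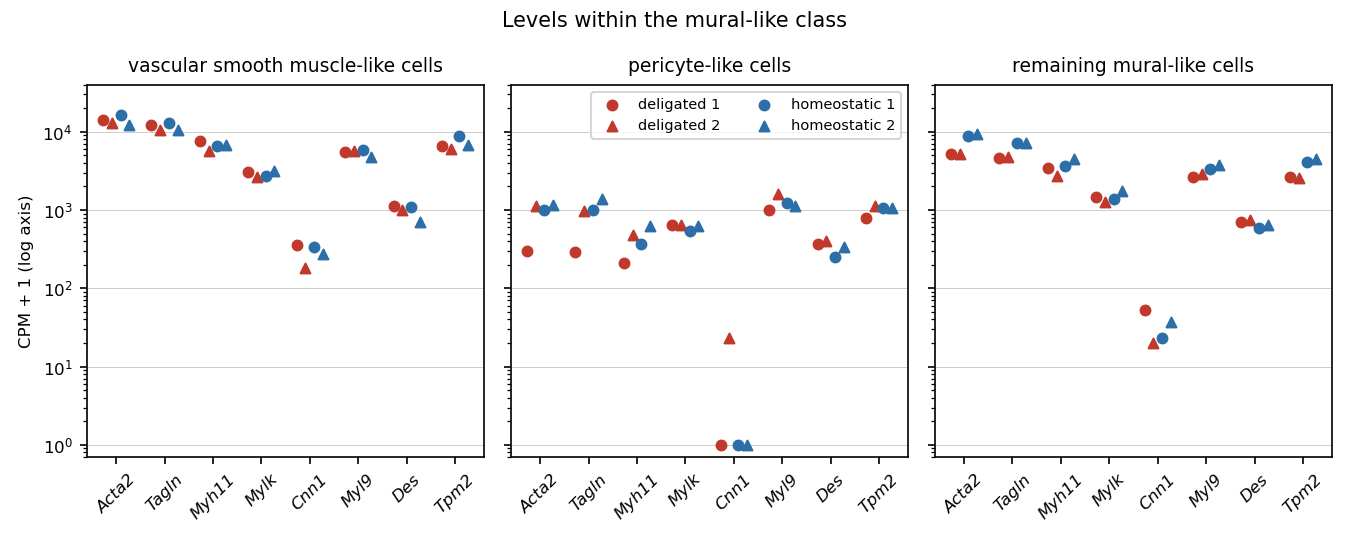
CPM + 1 of the 8 genes (log axis) in vascular smooth muscle-like, pericyte-like and remaining mural-like cells, 1 point per library, red deligated, blue homeostatic. Acta2 reaches 12130 to 16110 CPM in the left panel and 301.5 to 1154 CPM in the middle panel.

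Within the vascular smooth muscle-like cells the deligated and homeostatic libraries overlapped for 7 of the 8 genes, such as Myl9, at 5497 and 5673 against 5908 and 4793 CPM. The exception was Tpm2, lower in both deligated libraries at 6635 and 6092 against 8876 and 6830 CPM, as were 18.1% of genes with at least 10 UMIs in this class. In the remaining mural-like cells 5 genes were lower in both deligated libraries and 1, Des, was higher in both, where 20.2% of genes with at least 10 UMIs were lower and 29.2% higher. Among the 5 were Acta2 and Tagln, with Acta2 at 5198 and 5142 against 8843 and 9276 CPM and Tagln at 4637 and 4677 against 7120 and 7209 CPM. The remainder is what a sub-clustering run separately in each group left unnamed, so it may hold unlike cells in the 2 groups. With contractile genes kept for clustering it went from 42 and 44 to 13 and 19 homeostatic cells, and from 153 and 185 to 145 and 178 deligated cells. No test was made in these smaller sets because at least 1 library held under 20 cells or, for the remainder, because it is not a named type. Vascular smooth muscle-like cells were 24.1%, 25.9%, 18.1% and 18.7% of mural-like cells, with exact Clopper-Pearson 95% intervals of 19.6% to 29.2%, 21.96% to 30.2%, 11.8% to 25.9% and 10.6% to 29.3% that overlap. The order turned with contractile genes kept for clustering, when the shares were 24.2%, 25.4%, 37.6% and 49.3%, with doublets retained (22.5%, 22.7%, 25.8% and 29.8%) and under the stricter cell filter (17.6%, 21.2%, 27.8% and 31.4%).

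Across cells of a library the 8 genes varied together. Among the 28 pairs of members in mural-like cells, Spearman correlations of depth-scaled levels had medians of 0.65, 0.65, 0.63 and 0.55, and the pair of Acta2 and Tagln gave the highest value in each library, 0.92 to 0.93. Within vascular smooth muscle-like cells the medians were lower, 0.40, 0.37, 0.34 and 0.22, over 78, 118, 23 and 14 cells. Cells of a library share their chemistry and free RNA, so these are descriptions.

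In basal/myoepithelial-like cells 7 of the 8 genes were higher in both deligated libraries than in both homeostatic ones, as were 26.5% of 7980 genes with at least 10 UMIs in the class. Acta2 stood at 2705 and 4671 CPM against 243.5 and 907.3 CPM. Myh11 was at 1195 and 1027 against 131.7 and 203 CPM, and Mylk at 762.3 and 1107 against 99.8 and 101.5 CPM. Cnn1, also a marker of myoepithelial cells, was at 422.9 and 513.4 against 35.93 and 69.79 CPM. Des, which is typical of muscle and not of epithelium, had 6 UMIs in deligated 1 and 0 in the other 3 libraries, an upper limit of 37.1, 14.7 and 23.4 CPM for counting error.

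The other 3 members followed. Tagln was at 727.9 and 1319 against 155.7 and 374.3 CPM, Myl9 at 555.7 and 795.3 against 31.94 and 145.9 CPM, and Tpm2 at 1682 and 2275 against 275.4 and 685.2 CPM. The groups did not overlap for any of these. Summed over libraries, the ratio of deligated to homeostatic CPM was 6.70 for Acta2 (95% interval 5.76 to 7.83, counting error only), 7.16 for Myh11 (5.48 to 9.48) and 8.71 for Mylk (6.25 to 12.4).

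The class was set to be tested only with at least 20 cells in every library, and deligated 2 held 18. A fit made after seeing the data called 3 of 7 members tested (edgeR), with 4.60% of 3108 genes called in that fit, 2.54% higher and 2.06% lower. These were Mylk (log2 fold change 3.02, SE 0.34, adjusted p 0.0187 by edgeR), Myh11 (2.54, SE 0.36, adjusted p 0.026 by edgeR) and Cnn1 (2.98, SE 0.45, adjusted p 0.0305 by edgeR). Cnn1, with 137 UMIs over the deligated and 20 over the homeostatic libraries, passed the low-count filter only with the deligated ones. Its direction was thus largely fixed by the filter. Acta2 (2.44, SE 0.67, adjusted p 0.0917 by edgeR) was not called.

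More of the basal/myoepithelial-like cells held the transcripts in the deligated libraries. A UMI of Acta2 was found in 50.0%, 44.4%, 10.2% and 18.4% of basal/myoepithelial-like cells, and in 40.0%, 45.5%, 9.76% and 6.06% after thinning to 1000 UMIs per cell, which left 20, 11, 41 and 33 cells. In T cell-like cells of the same libraries the unthinned shares were 4.92%, 6.56%, 1.24% and 0%. At least 3 Acta2 UMIs were found in 10 of 22, 8 of 18, 5 of 59 and 7 of 49 cells. Depth and RNA quality moved with the group: median UMIs were 8614.5, 3414.5, 1387 and 1401 per cell, and the median mitochondrial share was 3.92%, 0.83%, 0.19% and 0.11%. Their part in the result was not tested. The class was named from Krt14, Krt5, Krt17, Trp63, Cdh3 and Col17a1, which basal duct cells share with myoepithelial cells, so these types were not separated. It joins a sub-cluster of 14, 8, 35 and 35 cells with a median of 1128 UMIs, led by genes such as Pcp4, Fgf7, Igfbp2 and Postn, and another of 8, 10, 24 and 14 cells with a median of 6628.5 UMIs.

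Fibroblast-like cells held low levels of the actin and myosin genes, and 5 of the members were higher after deligation. Acta2 was at 14.95 and 23.49 CPM in the deligated libraries (71 and 153 UMIs) against 1.084 and 1.646 CPM in the homeostatic ones (2 and 3 UMIs). Tagln was at 45.26 and 21.65 CPM (215 and 141 UMIs) against 1.626 and 0.5485 CPM (3 and 1 UMIs). For both genes the groups lay well apart. The log2 fold changes were 3.85 (SE 0.46, adjusted p 2.54e-04 by edgeR) and 4.95 (SE 0.67, adjusted p 5.82e-04 by edgeR). From the summed counts the ratio of CPM was 14.6 for Acta2 (95% interval 6.16 to 45.4) and 29.0 for Tagln (11.2 to 107), counting error only.

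The members that fibroblasts express at rest changed less. Mylk, at 258.7 and 274.6 against 186.4 and 211.2 CPM, gave a log2 fold change of 0.48 (SE 0.13, adjusted p 0.0235 by edgeR). Myl9, at 41.26 and 55.9 against 30.89 and 30.17 CPM, gave 0.73 (SE 0.19, adjusted p 0.0185 by edgeR), and Des, at 20.63 and 20.88 against 14.63 and 9.325 CPM, gave 0.85 (SE 0.25, adjusted p 0.0325 by edgeR). In all 3 both deligated libraries were above both homeostatic ones. The share of all genes that lay so was not counted in this class, and was 22.3% to 29.2% in the classes where it was. That range may not hold here, since edgeR called 25.4% of genes in this class against 6.56% in mural-like cells. Tpm2, at 90.31 and 77.39 against 67.73 and 70.21 CPM, did not pass (0.34, SE 0.16, adjusted p 0.146 by edgeR), although it was called without deligated replicate 2 (0.51), with doublets retained (0.51) and on a per-cell scale (1.02).

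The remaining members are those most particular to smooth muscle. Myh11 was at 1.895, 14.9, 0.5419 and 2.194 CPM, so that deligated 1 lay below homeostatic 2, and did not pass the filter on low counts. Cnn1 had 0, 2, 0 and 0 UMIs, at most 2.02 CPM by the upper 95% limits, and was not tested either. Thus 6 of 8 members were tested and 5 were called higher, where 8.24% of 11455 genes were called higher, 17.2% called lower and 25.4% called in either direction. The median over the 6 was 0.79 and over all genes 0.00. Acta2 and Tagln passed the filter through the deligated libraries alone, so their direction was largely fixed by the filter and the count does not stand for the list as a whole.

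Without homeostatic replicate 2 Mylk (0.59), Myl9 (0.72) and Des (0.57) were not called, leaving 2 members, and without homeostatic replicate 1 Mylk (0.38) and Myl9 (0.73) were not, leaving 3. DESeq2 and removal of the intron-length trend likewise ended the calls of Myl9 and Des. Fibroblast-like cells were deeper in the deligated libraries, with medians of 13052, 9047, 6698.5 and 6560 UMIs per cell. On a scale of UMIs per cell, added after seeing the data, the median of all genes shifted by 0.64 and 80.5% of calls were higher against 32.4% on the CPM scale. Acta2 then gave a log2 fold change of 4.43 and Tagln 5.68.

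**Figure D3:**
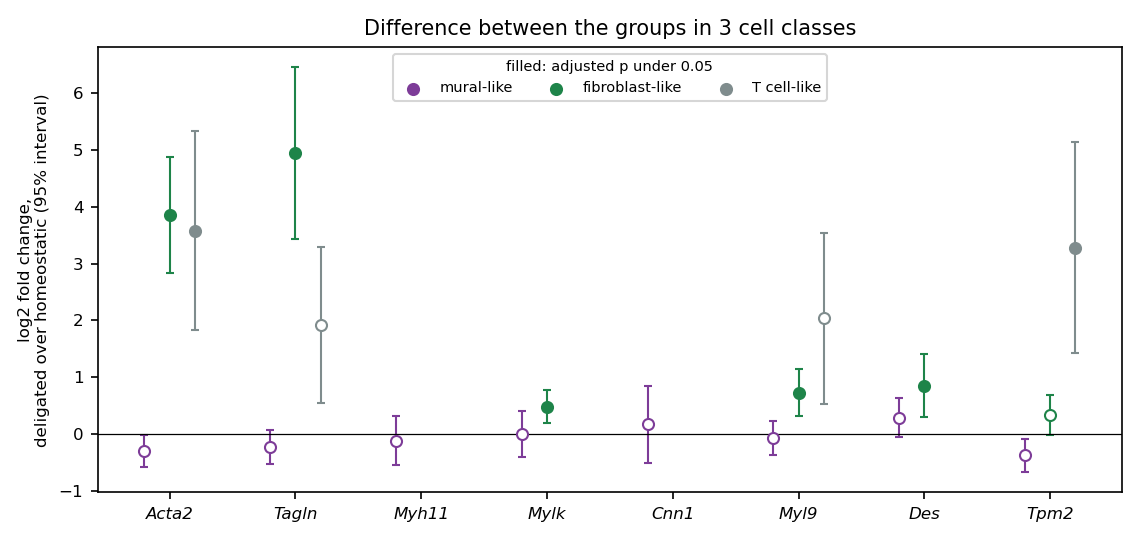
Log2 fold change of each gene, deligated over homeostatic, with its 95% interval from edgeR in mural-like, fibroblast-like and T cell-like cells; filled points have an adjusted p under 0.05. Myh11 in T cell-like cells is not drawn because homeostatic T cell-like cells held 0 UMIs, and other gaps are genes that did not pass the filter. Acta2 lies at 3.85 in fibroblast-like and 3.58 in T cell-like cells and at -0.29 in mural-like cells.

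T cells are not known for a smooth muscle apparatus, and their UMIs were taken as the reference for free RNA in the droplets of each library. The level was higher in both deligated libraries for all 8 genes, for Cnn1 by 1 UMI in each against 0. Of 12012 genes with at least 10 UMIs in the class, which leaves out Cnn1, 22.3% were higher in both. Acta2 was at 9.63, 13.74, 2.119 and 0 CPM (31, 55, 2 and 0 UMIs), and Tagln at 6.213, 11.49, 2.119 and 2.952 CPM (20, 46, 2 and 3 UMIs). Myh11 had 18, 23, 0 and 0 UMIs, at least 3.71-fold higher in the deligated libraries against a floor of 3 counts over the homeostatic group. Tpm2 was at 7.455, 11.49, 2.119 and 0 CPM.

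Of 5 members tested in T cell-like cells 3 were called higher, Acta2 (log2 fold change 3.58, SE 0.76, adjusted p 0.0125 by edgeR), Myh11 (adjusted p 0.0119 by edgeR) and Tpm2 (3.28, SE 0.81, adjusted p 0.0236 by edgeR), where 5.27% of 9705 genes were called higher and 19.6% in either direction. Tagln (1.92, SE 0.60, adjusted p 0.0565 by edgeR) and Myl9 (2.04, SE 0.66, adjusted p 0.0625 by edgeR) were not called. Acta2, Myh11 and Tpm2 passed the filter through the deligated libraries alone, so their direction was largely fixed by the filter and the count does not support more. Without homeostatic replicate 2 none of these calls held, with Acta2 at 2.56 and an adjusted p of 0.0867 by edgeR, the highest of 4.23e-06 to 0.0867 over the alternatives. NK/innate lymphoid-like cells, another lymphocyte class, showed all 8 genes higher in both deligated libraries too, where 27.7% of genes with at least 10 UMIs were, with Acta2 at 6.669, 14.61, 1.319 and 2.271 CPM. The share of mural-like cells in the suspension moved in the same direction, as given above, and its part in these levels was not tested.

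The mix of transcripts in T cell-like cells was compared with that of mural-like cells. In the deligated libraries Acta2 made up 24.2% and 24.2% of the 8 genes' UMIs in T cell-like cells and 26.3% and 27.3% in mural-like cells, and Myh11 14.1% and 10.1% against 15.3% and 12.5%. These lay within the exact 95% intervals of the T cell shares. Tagln in deligated 1 (15.6%, interval 9.81% to 23.09%, against 23.15%) and Tpm2 in deligated 2 (20.3%, interval 15.2% to 26.1%, against 13.6%) did not. In fibroblast-like cells of the same libraries the mix differed, with Mylk at 54.7% and 56.1% against 10.9% and 8.81% in T cell-like and 6.75% and 6.33% in mural-like cells.

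Set against T cell-like cells of the same library, fibroblast-like cells of the deligated libraries stood higher for 5 of 7 members tested, where 36.9% of 12356 genes were called higher and 69.9% in either direction. Mylk was higher by a log2 fold change of 5.55 (SE 0.17, adjusted p 1.13e-09 by edgeR), Des by 3.25 (SE 0.37, adjusted p 2.31e-05 by edgeR), Tpm2 by 2.85 (SE 0.24, adjusted p 1.16e-06 by edgeR) and Myl9 by 2.78 (SE 0.20, adjusted p 3.24e-07 by edgeR). For these 4 the fibroblast level was at least 6.74 times the T cell level in each deligated library. Des, with 4 and 9 UMIs in T cell-like cells, passed the filter through fibroblast-like cells alone, so its direction was largely fixed by the filter. Tagln was higher by 1.52 (SE 0.37, adjusted p 0.00321 by edgeR), but by 0.66 and not called without deligated replicate 1, and DESeq2 did not call it (1.68).

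Acta2 in fibroblast-like cells did not pass against the T cell reference on the CPM scale. The log2 fold change was 0.45 (SE 0.27, 95% interval -0.14 to 1.04, adjusted p 0.158 by edgeR), and by library the ratio was 1.55 (95% interval 1.00 to 2.45) in deligated 1 and 1.71 (1.25 to 2.37) in deligated 2. It was called against NK/innate lymphoid-like cells (0.56), under the stricter cell filter (0.80), without homeostatic replicate 1 (0.62) or 2 (0.64), and on the scale of UMIs per cell (1.69, where all genes had a median of 1.30 and 86.5% of calls were higher against 52.7% on the CPM scale). Adjusted p over the alternatives ran from 6.06e-06 to 0.618. Per 1000 cells the fibroblast-like class held 196.7 and 204.3 Acta2 UMIs and the T cell-like class 52.63 and 70.69. Myh11 did not differ in a stable direction: its fold change was 0.11 (SE 0.58, adjusted p 0.876 by edgeR), -1.75 without deligated replicate 2, and 1.11 and called without deligated replicate 1. Cnn1 did not pass the filter.

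**Figure D4:**
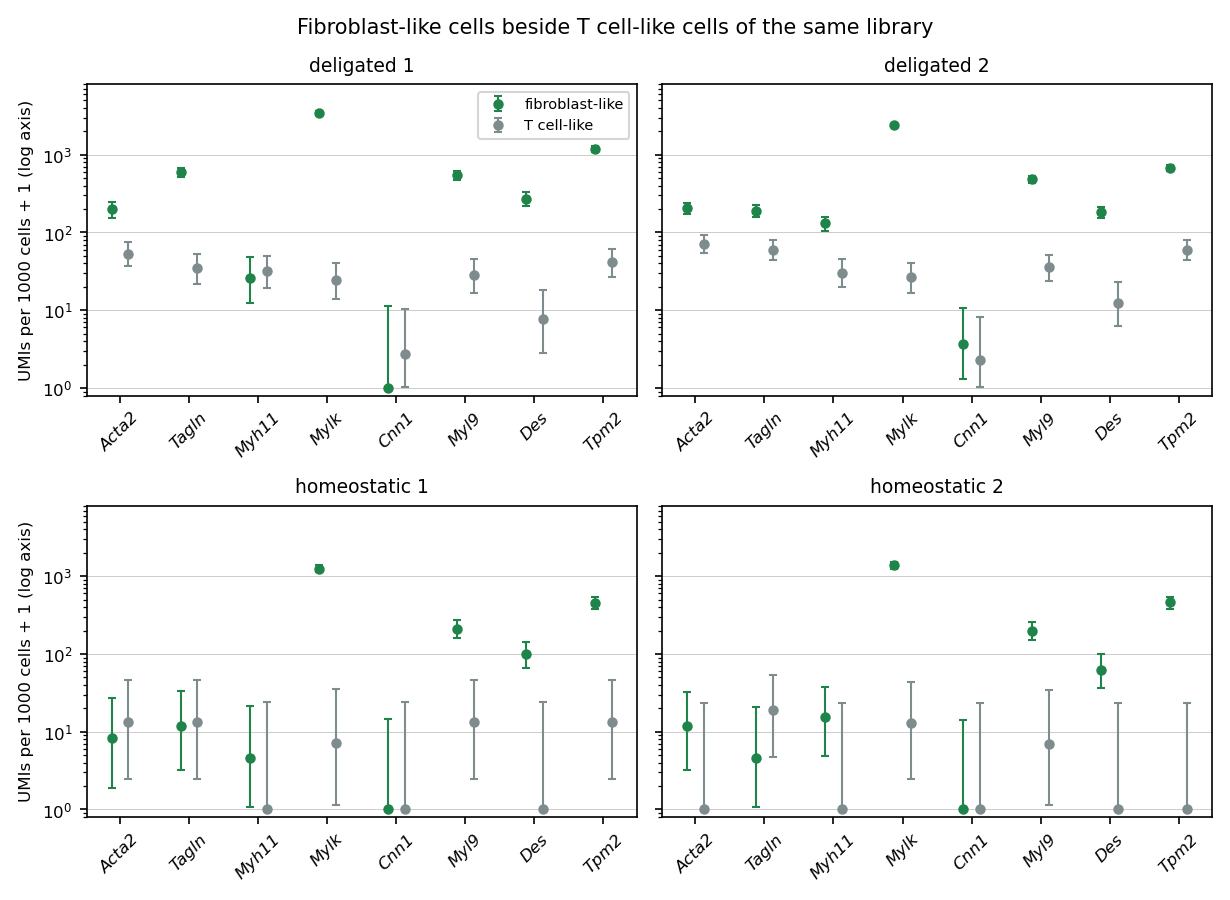
UMIs per 1000 cells + 1 (log axis) of the 8 genes in fibroblast-like (green) and T cell-like (grey) cells, 1 panel per library, with exact 95% Poisson intervals that cover counting error only. Counts are per cell and not scaled to depth, which was higher in fibroblast-like cells. Mylk, Myl9, Des and Tpm2 of fibroblast-like cells lie above T cell-like cells in all 4 panels, whereas the intervals of Acta2 and Tagln lie apart in the deligated panels and overlap in the homeostatic ones, at 196.7 against 52.63 and 595.6 against 33.96 UMIs per 1000 cells in deligated 1.

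In the homeostatic libraries 4 of 7 members tested were higher in fibroblast-like than in T cell-like cells, Mylk (log2 fold change 6.94, SE 0.29, adjusted p 1.20e-08 by edgeR), Tpm2 (5.97, SE 0.58, adjusted p 5.38e-06 by edgeR), Myl9 (4.23, SE 0.47, adjusted p 1.70e-05 by edgeR) and Des (adjusted p 7.20e-04 by edgeR), where 33.8% of genes were called higher and 57.2% in either direction. Des had 0 UMIs in T cell-like cells of both libraries, and its fibroblast level was at least 4.60-fold and 3.16-fold higher than the floor of 3 counts per library. It passed the filter of the shared fit through fibroblast-like cells alone, so its direction was largely fixed here too. Acta2 (0.35, SE 1.20, adjusted p 0.82 by edgeR) and Tagln (-1.25, SE 1.47, adjusted p 0.493 by edgeR) were not called, with 1 to 3 UMIs of each per library in fibroblast-like cells.

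Whether the fibroblast excess over T cells differed between the groups was tested in the same fit. Of 7 members tested edgeR called 0, with 1 at an unadjusted p under 0.05 (Tpm2) and 0 by DESeq2, where 0.534% of all genes were called, 0.283% higher and 0.251% lower. For Acta2 the difference was 0.10 (95% interval -3.20 to 3.39, adjusted p 1 by edgeR) and for Tagln 2.77 (95% interval -0.72 to 6.27, adjusted p 0.481 by edgeR). The homeostatic cells held 0 to 3 UMIs of these genes per class and library. Homeostatic NK/innate lymphoid-like cells held 6 and 12 UMIs of Mylk, 9 and 7 of Myl9, 1 and 1 of Des and 9 and 10 of Tpm2. With this class as reference, the fibroblast excess of 4 members was called lower in the deligated group, where 2.14% of 13662 genes were. These were Mylk (-1.32), Myl9 (-1.75), Des (-3.05) and Tpm2 (-2.24), none of which was called lower in fibroblast-like cells as such. Tpm2 was also called lower without deligated replicate 1 (-3.52). On the per-cell scale Tagln was called (3.85, where the median of all genes was 0.91 and 99.0% of calls were higher against 53.0% on the CPM scale).

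A few fibroblast-like cells held most of the Tagln. In deligated 1, 5 of 361 cells held 185 of 215 Tagln UMIs (86.0%), with 130 in the highest cell, and in deligated 2, 5 of 749 cells held 97 of 141 (68.8%), with 82 in the highest. For Acta2 the 5 highest cells held 49.3% and 52.9%, and the highest had 8 and 63 UMIs. For Myh11 in deligated 2 they held 77 of 97 UMIs (79.4%). Mylk, by contrast, was spread, with 5.8% and 5.0% of its UMIs in the 5 highest cells.

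Outside the 5 highest cells, fibroblast-like cells of the deligated libraries held 101 and 96.8 Acta2 UMIs per 1000 cells against 41.1 and 59.5 in T cell-like cells treated alike. For Tagln the values were 84.3 and 59.1 against 18.8 and 50.5, and for Myh11 8.43 and 26.9 against 18.8 and 23.3. These counts are per cell and not scaled to depth. Median depth in the deligated libraries was 13052 and 9047 UMIs in fibroblast-like cells against 5114 and 4897 in T cell-like cells. CPM was not computed without the 5 highest cells, so an excess beyond depth is not shown here. The values are descriptions, since the cells were set aside by their values.

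The shares of cells with a UMI gave a similar picture. Acta2 was found in 9.97%, 10.2%, 0.73% and 1.08% of fibroblast-like cells and 4.92%, 6.56%, 1.24% and 0% of T cell-like cells, whose median depths were 5114, 4897, 5366 and 5153 UMIs against the higher fibroblast depths given above. At 1000 UMIs per cell the fibroblast shares were 1.94%, 1.24%, 0% and 0.362% and the T cell shares 0.852%, 1.16%, 0% and 0%, each near the level of a few UMIs. At least 2 of Acta2, Tagln, Myh11, Cnn1 and Des were found together in 16 of 361, 30 of 749, 0 of 274 and 1 of 279 fibroblast-like cells, and in 3 of 589, 11 of 778, 0 of 161 and 0 of 167 T cell-like cells. In the deligated libraries Des was absent from 294 of 361 and 644 of 749 fibroblast-like cells, against 585 of 589 and 769 of 778 T cell-like cells. Cells with Des and 1 other gene are thus among those counted, and pairs without Des were not counted apart. Mylk was present in 84.2%, 76.4%, 55.1% and 61.3% of fibroblast-like cells and in at most 2.57% of T cell-like cells, and after thinning in 22.5%, 21.6%, 13.01% and 16.7% against at most 0.511%.

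Of the 34 other contraction genes, 29 were tested in fibroblast-like cells. Of these, 8 were higher and 7 lower after deligation, where 8.24% of all genes were called higher and 17.2% lower. The higher ones included Cnn2 (calponin 2, log2 fold change 0.95), Flna (filamin A, 0.85), Tpm1 (0.74), Actn1 (alpha-actinin 1, 0.73), and the light chains Myl12a (0.62) and Myl6 (0.61). These are cytoskeletal genes that many non-muscle cells express. Of these 6, only Cnn2 stayed called with either homeostatic library left out, since Flna lost its call without homeostatic replicate 1 (0.78) and the other 4 without either 1 or 2 (0.59 to 0.83). The 7 that were lower included Mkl1 (-1.92), Ppp1r12b (-1.64), Itga8 (-1.06), Mkl2 (-0.97) and Ppp1r12a (-0.95). Mkl1 and Mkl2 encode myocardin-related co-activators of serum response factor, and Ppp1r12a and Ppp1r12b encode subunits of the phosphatase that opposes Mylk. After removal of the intron-length trend Mkl1 stayed called (it lost its call after thinning, -0.98), Itga8 turned (0.04), and Ppp1r12b (-0.55), Mkl2 (-0.03) and Ppp1r12a (-0.23) were no longer called. The introns of Mkl1 span 172.4 kb and those of Mkl2 152.1 kb.

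Of 10 activated fibroblast genes 8 were tested, 5 were higher and 1 lower, beside the same shares of all genes. Among the 5, Lrrc15 passed the filter through the deligated libraries alone, so its direction was largely fixed by the filter. Postn, periostin, was at 385.9 and 155.9 CPM against 18.42 and 18.65 (log2 fold change 3.94, adjusted p 1.93e-04 by edgeR). Col1a1, collagen I, was at 5298 and 3823 against 1461 and 1540 CPM (1.67, adjusted p 1.12e-04 by edgeR), Lrrc15 at 23.37 and 4.607 against 0.5419 and 0 CPM (called, but not without homeostatic replicate 2) and Fn1, fibronectin, at 307.5 and 93.52 against 38.47 and 43.33 CPM (2.36). Fap, also a marker of activated fibroblasts, was lower, at 182.1 and 189.5 against 393.9 and 372.4 CPM (-0.98, adjusted p 3.19e-04 by edgeR). The calls of Col1a1 and Fap were not limited to fibroblast-like cells. In mural-like cells Col1a1 was called higher (1.34, at 120.9 and 156.7 against 76.91 and 25.56 CPM) and Fap lower (-1.35). In T cell-like cells, the reference for free RNA, Col1a1 was also called higher (6.213 and 17.23 against 0 and 0 CPM). It passed the filter there through the deligated libraries alone, so that direction was largely fixed by the filter. Fn1 was not called with doublets retained (0.04) and was at -0.04 under the stricter cell filter, and Fap was not called on the per-cell scale (-0.33).

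Actin genes close in sequence to Acta2 could share its reads. Actg2 was at 29.14, 3.143, 8.011 and 2.13 CPM in mural-like cells and had 0 UMIs in fibroblast-like cells of all 4 libraries. In basal/myoepithelial-like cells Actg2 was at 14.75, 181.2, 3.992 and 12.69 CPM. How reads shared between these genes were counted is not given in the sources used here.

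Genes with the pattern most like that of the 8 were sought over 24 sums, 6 classes in 4 libraries. Notch3, a receptor of mural cells and one of the markers used to name them, had the highest Pearson correlation with the members' mean level (0.99). Sbspon (0.98), Slc8a2 (0.98), Cox4i2 (0.98), Ccdc3 (0.98), Hspb2 (0.98), Casq2 (0.97) and Synpo2 (0.97) followed. Casq2 binds calcium in the sarcoplasmic reticulum of muscle, Cox4i2 is a subunit of the respiratory chain and Synpo2 binds actin. Among the members the same measure was lowest for Mylk (0.90) and highest for Myl9 (0.99). Sums of a library share depth and free RNA, and the mural-like class dominates the measure.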

How the data were processed

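The authors deposited raw UMI counts per gene and barcode, made with Cell Ranger 6.0.1 (deligated) and 7.0.0 (homeostatic) per the file headers; the submitters' processing notes name mm10 and Cell Ranger 6.0.1. Whether intronic reads were counted is not given in the sources used here. Cells with at least 300 genes and at most 10% mitochondrial UMIs were kept, and scored doublets removed at 0.8% per 1000 cells. The 4 libraries entered a joint clustering with no batch correction (3000 variable genes, 30 components, 20 neighbours, leidenalg 0.10.2 at resolution 1.0). A class needed 3 markers detected in 10% of its cells at 2.0-fold. Sums of counts by class and library were tested with edgeR 4.0.16 (quasi-likelihood, TMM, filterByExpr, R 4.3.3) where every library had 20 cells, with Benjamini-Hochberg adjustment over all genes and a threshold of 0.05; fibroblast-like and T cell-like sums shared a fit with library as block. Alternatives were DESeq2 1.42.0, other filters, clustering and scales, and each library left out; the per-cell scale and the basal/myoepithelial-like test were added after seeing the data. Identifiers matched GENCODE M21 for 99.9%. Libraries of a group differed by more than sampling noise (chi-square per degree of freedom 97.4 and 9.89). Scripts were tested on simulated data. The members and lists were chosen with earlier results of these data known; all members are named, with up to 6 contraction genes and 4 activated fibroblast genes per direction by size among those past the threshold, and the 8 genes nearest in pattern. The values of 1 gene that this rule names are not reported here.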

Additional observations from a re-analysis of the deposited data

Results flagged for a closer look

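The summed level of the 8 genes in macrophage-like cells, a class outside the comparisons above, averaged 957.7 CPM over the deligated libraries, above the level in the homeostatic libraries. By library it was 1639 and 276.6 CPM in the deligated (1105 and 241 UMIs in 85 and 139 cells) against 31.86 and 28.84 CPM in the homeostatic ones (116 and 98 UMIs in 982 and 994 cells). The deligated libraries differed from each other by more than either homeostatic library differed from the other, and the difference between groups was not tested in this class.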

How the results depend on the processing

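Precision is limited by 2 libraries per group, by 18 to 59 basal/myoepithelial-like cells and by 0 to 3 UMIs of Acta2 and Tagln in homeostatic fibroblast-like and T cell-like cells. Of the gene-level fold changes under the alternatives listed in the methods, 694 kept direction and call, 51 lost a call, 21 gained one and 34 turned; for the per-cell scale, chosen after seeing the data, the numbers were 47, 5, 4 and 4. Members called in mural-like cells went from 0 to 2 under the stricter cell filter and 1 with the intron-length trend removed. In fibroblast-like cells they went from 5 to 1 of 2 tested after thinning, 3 with DESeq2, 3 with the intron-length trend removed, and 2 to 6 with a library left out. In T cell-like cells they went from 3 to 5 with doublets retained, under the stricter filter or with no count filter, and 0 to 3 with a library left out. Fibroblast-like against T cell-like cells gave 2 of 2 tested after thinning in either group. The difference between groups gave 1 with no count filter, 4 with the NK/innate lymphoid-like reference, 1 per cell, and 0 to 1 with a library left out. Vascular smooth muscle-like shares went from 25.0% to 22.6% (doublets retained) and 19.4% (stricter filter) in the deligated, and from 18.4% to 43.5% (contractile genes kept), 27.8% and 29.6% in the homeostatic libraries. The cause of these changes was not tested, except that fewer genes passed after thinning.

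Directions turned as follows (log2). In mural-like cells under the stricter filter Acta2 was 0.70, Tagln 0.50, Myh11 0.55, Mylk 0.56, Myl9 0.52 and Tpm2 0.33; per cell Tagln was 0.002, Myh11 0.11, Mylk 0.21 and Myl9 0.14; with doublets retained Myh11 was 0.041, Mylk 0.21 and Myl9 0.054; and with the intron-length trend removed Myh11 was 0.33 and Mylk 1.08. Mylk was also 0.003 with DESeq2 size factors, 0.004 with DESeq2, 0.056 with no count filter and 0.01 with the replicate block. With a library left out, Myh11 ranged from -0.37 to 0.17, Mylk from -0.24 to 0.29, Cnn1 from -0.41 to 0.63 and Myl9 from -0.18 to 0.057. In fibroblast-like cells Tpm2 was -0.047 after thinning, Itga8 0.038 with the intron-length trend removed and Fn1 -0.04 under the stricter filter. Against T cell-like cells in the deligated libraries Myh11 was -0.36 (doublets retained), -0.26 (DESeq2), -0.17 (intron-length trend) and -1.75 to 1.11 with a library left out. In the homeostatic libraries, with the NK/innate lymphoid-like reference, Acta2 was -0.57 and Myh11 -0.11 (Myh11 0.36 for the difference), and Acta2 was -1.08 to 5.39 with a library left out. For the difference Acta2 was -0.97 with doublets retained and -4.77 to 1.72 with a library left out.

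The replicate block gave 0, 5 and 3 members called in mural-like, fibroblast-like and T cell-like cells, as without it. Over genes, the deviations of same-numbered libraries from their group means correlated at -0.065, -0.062 and -0.069 in these classes. These values show no pairing by number but cannot exclude it. Genes called in all ranged from 169 to 1054 (639 as reported), 1002 to 4229 (2915) and 688 to 2870 (1906) in these classes, and the share of calls that were higher went from 14.4%, 32.4% and 26.8% to 51.8%, 52.2% and 53.1% with the intron-length trend removed, and to 34.0%, 80.5% and 5.7% per cell. In T cell-like cells no member passed the filter after thinning or without deligated replicate 2, and the basal/myoepithelial-like class was too small in deligated 2 for its intended fit and alternatives.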
